A study of Rattus norvegicus with 59 samples.

Results

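Myh6 and Myh7 encode the alpha and beta heavy chains of cardiac myosin, the motor protein of the heart muscle sarcomere. They were followed in the RNA of sorted cardiomyocyte nuclei from rats with pressure overload or endurance training. Both genes were chosen by identifier (ENSRNOG00000025757 for Myh6 and ENSRNOG00000016983 for Myh7), as 2 of the 22938 genes in the count tables, and both were present in every table used. The identifiers were paired with the names by the list that chose them. The deposited tables give no gene names, and 0 of their identifiers matched the reference gene table.

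All groups were male Sprague Dawley rats, whose age and genetic background beyond the strain are not given in the labels, and all samples were left ventricle nuclei sorted for PCM1, a centriolar satellite protein used to mark cardiomyocyte nuclei. Banded rats, of about 170 g at the start, carried a tightened suture around the ascending aorta for 6 weeks and were kept only if the heart was enlarged and not failing. Sham rats of the same start weight had the surgery without tightening. Trained rats, of about 280 g, ran intervals on a treadmill inclined by 25 degrees on 6 days a week for 6 weeks, from a first speed of 15 m/min. Control rats of about 280 g were not assigned to training. The PCM1-negative nuclei used below for comparison came from control rats only. Each group had 4 RNA libraries with count columns, from at least 100000 sorted nuclei per library. The 2 sham libraries numbered 2 and 3 were nearly as alike as repeat counts of a single library would be. They were summed into a joined sample, which leaves 3 sham samples and 15 samples overall. Separate animals are not stated for the replicates, so a p-value here reflects sample-to-sample spread that could be technical in part.

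The alpha chain gives a fast myosin with high ATPase activity and the beta chain a slower, more economical one. Adult rat and mouse ventricle makes mostly the alpha chain, while the fetal ventricle makes mostly the beta chain. Return of the beta chain with loss of the alpha chain is a long-known marker of pathological growth of the rodent heart, and thyroid hormone drives the pair towards alpha. In the RefSeq table for assembly GRCr8 the 2 genes were neighbours, with 0 protein-coding genes starting between them.

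Each gene holds a microRNA of the miR-208 family, Mir208a within Myh6 and Mir208b within Myh7, which are made from the host gene's transcript. Their mature sequences are shown because they are the regulatory product of the same nuclear transcripts that were counted here. They were not measured themselves. Capitals mark the seed (bases 2 to 8), and the sequences are RefSeq's for GRCr8, all on the minus strand.
rno-miR-208a-3p: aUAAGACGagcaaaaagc
rno-miR-208b-3p: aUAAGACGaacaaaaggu
rno-miR-208a-5p: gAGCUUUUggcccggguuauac
rno-miR-208b-5p: aAGCUUUUugcucgcguuau
The 3p arms lie at chr15:32395568-32395585 (miR-208a) and chr15:32421648-32421665 (miR-208b). The seed UAAGACG was shared by both 3p arms, and AGCUUUU by both 5p arms. Over their 18 bases the 3p arms differed by G10A, A16G and C18U, with the base of miR-208a first and positions counted from the 5′ end.

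Total counts ranged from 1822538 to 14394757 per library. Myh6 had 16413 to 112163 counts and Myh7 1421 to 48908 counts in a library, so the counting error of one value was at most 0.781% for Myh6 and 2.65% for Myh7, taking reads as independent molecules, which PCR copies are not. The CV between samples was wider than this in every group (at least 4.49%). Both genes together took 0.835% to 1.41% of a library's counts. Genes enriched more than 8-fold in the PCM1-negative fraction, which was sampled in control rats only, stand in here for other cell types in every group. They gave 4.32% of the counts in sham replicate 1 and 4.45% in banded replicate 1, and 0.536% to 1.68% in the other 14 libraries. The heavy chains are close paralogs whose reads can be hard to tell apart, and both loci overlap non-coding genes (LOC108352923 at Myh6, LOC120096985 at Myh7) while Myh7 also overlaps the protein-coding LOC120096984. The sources used here do not state how such reads were assigned or whether strand was used. Counts were not divided by gene length, so a Myh7 to Myh6 ratio serves to compare samples and does not give the relative number of molecules.

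Myh6, the alpha chain gene, was highest in the exercise experiment. Control samples 1 to 4 held 11475, 10086, 10693 and 11001 CPM (counts scaled to a common library total, as counts-per-million), a mean of 10814 ± 582 (SD, n = 4). Trained samples 1 to 4 held 13298, 10172, 6022 and 11968 CPM (10365 ± 3166, SD, n = 4). The trained group therefore spanned the control group, with replicate 3 below and replicates 1 and 4 above every control sample. Sham sample 1, the joined sample and sample 4 held 7950, 9951 and 8523 CPM (8808 ± 1031, SD, n = 3). Banded samples 1 to 4 held 6106, 5433, 6374 and 7062 CPM (6244 ± 674, SD, n = 4). All 4 banded samples lay below all sham samples, and all sham samples below all controls. In order of group means, banded was lowest, then sham, trained and control. The range of the trained samples overlapped with that of every other group, with sham and banded through trained replicate 3.

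Myh7, the beta chain gene, ran in the other direction. Control samples 1 to 4 held 406, 1346, 849 and 828 CPM (857 ± 385, SD, n = 4). Trained samples 1 to 4 held 832, 665, 3057 and 1334 CPM (1472 ± 1094, SD, n = 4). Replicate 3 was the high one, and the other 3 trained samples lay within the range of the controls. Sham values were close together, at 1633, 1679 and 1537 CPM (1616 ± 72.6, SD, n = 3). Banded samples 1 to 4 held 2471, 3398, 3643 and 1291 CPM (2701 ± 1066, SD, n = 4). Replicates 1 to 3 were above every sham sample, and replicate 4 was below them all. In order of group means, control was lowest, then trained, sham and banded. Sham and control did not overlap. The range of the trained samples overlapped with that of every other group. Banded also overlapped with sham and with control, through banded replicate 4.

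**Figure D1:**
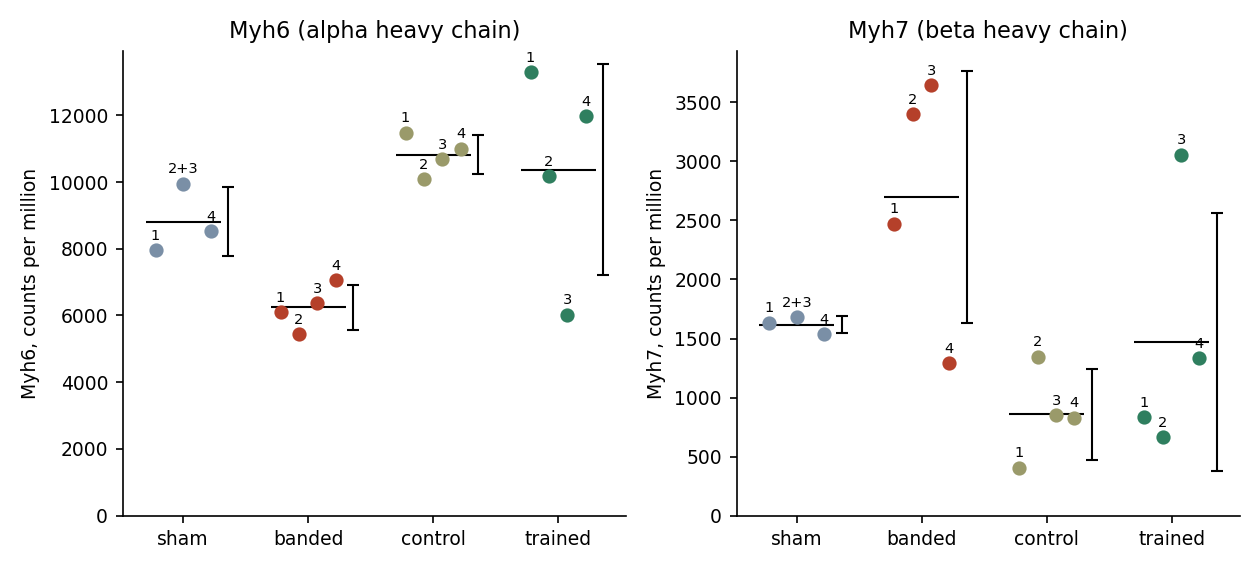
CPM (vertical axes, from 0) of Myh6 and Myh7 in each of 15 samples, by group and numbered by replicate (2+3 is the joined sham sample), with the group mean (line) and SD (bar beside it). The 4 banded samples lie below the sham samples for Myh6, while for Myh7 banded replicate 4 and trained replicate 3 stand apart from the rest of their groups.

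The first comparison follows these transcripts under pressure overload, with sham surgery as the reference. Myh6 was 1.41-fold lower and Myh7 1.67-fold higher in banded rats by group means, a difference of -2564 CPM for Myh6 and 1084 CPM for Myh7. Neither passed the test over all genes: the log2 fold change was -0.51 for Myh6 (SE 0.26, 95% interval -1.10 to 0.07, edgeR adjusted p = 1.00) and 0.74 for Myh7 (SE 0.37, 95% interval -0.10 to 1.59, edgeR adjusted p = 1.00). In that comparison 0.00788% of the 12689 genes tested passed in edgeR and 0.0158% in DESeq2. The unadjusted edgeR quasi-likelihood p, from the model fitted across all genes, was 0.0786 for Myh6 and 0.0762 for Myh7 (edgeR adjusted p = 1.00 for both). This unadjusted p depended on the tool. For Myh6 it was 0.00881 in DESeq2, 0.0435 in limma voom and 0.168 in edgeR without the filter on low counts. For Myh7 these values were 0.0371, 0.110 and 0.188. Neither gene passed after adjustment in any of these settings. Myh6 had no overlap between groups in CPM, as did 1.58% of all genes tested in the lower direction, 1.62% in the higher and 3.2% in either. Myh7 overlapped through banded replicate 4. For either gene taken alone, a changed share of cardiomyocyte nuclei and a changed level per nucleus cannot be told apart in RNA pooled from sorted nuclei. PCM1-negative-enriched genes gave 2.18% ± 1.90 of the counts in sham (SD, n = 3) and 2.08% ± 1.62 in banded samples (SD, n = 4). Their part in the difference was not tested.

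The size of the Myh7 difference depended on banded replicate 4. Without it the Myh7 log2 fold change was 0.97 (unadjusted p = 0.0120, edgeR adjusted p = 1.00), and without banded replicate 3 it was 0.55. With sham replicates 2 and 3 kept apart the values were -0.56 for Myh6 and 0.72 for Myh7. The unadjusted edgeR p was then 0.0286 and 0.0450, with an edgeR adjusted p of 1.00 for both. This setting counts libraries that were nearly repeat counts of each other as separate samples, which can make p too small. Without sham replicate 1 and banded replicate 1, the samples with the most counts from PCM1-negative-enriched genes, the log2 fold changes were -0.57 for Myh6 and 0.78 for Myh7.

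Training was compared with control to follow the same genes in physiological growth. Myh6 differed by -0.02 on the log2 scale (SE 0.21, 95% interval -0.48 to 0.43, edgeR adjusted p = 0.994). Myh7 was 1.72-fold higher in trained rats by group means, with a log2 fold change of 0.81 (SE 0.44, 95% interval -0.15 to 1.77, edgeR adjusted p = 0.774). No gene of the 10815 tested passed here in edgeR (0 called, 0%, with 761 at an unadjusted p under 0.05), and DESeq2 called 37 (0.342%), with neither heavy chain among them. Both genes overlapped between the groups, while 1.45% of genes were higher without overlap, 2.7% lower and 4.15% either. Without the filter on low counts, edgeR gave Myh7 a log2 fold change of 0.99 and an adjusted p of 0.0114, with 89 genes called. The Myh7 difference rested on 1 sample. Without trained replicate 3 the log2 fold change was 0.18 (edgeR adjusted p = 0.989) and that of Myh6 0.17. In trained replicate 3 the share of counts from PCM1-negative-enriched genes was 0.614%, within the 0.536% to 0.956% of the control libraries.

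The effects of banding and training were then set against each other in a fit of all groups. The banding effect minus the training effect was -0.49 for Myh6 (SE 0.32, 95% interval -1.17 to 0.18) and -0.08 for Myh7 (SE 0.66, 95% interval -1.49 to 1.32), with an edgeR adjusted p of 1.00 for both, where 0.00791% of genes passed. The Myh7 interval reaches beyond a 2-fold difference in either direction. With single libraries left out the Myh7 difference lay between -0.38 (without control replicate 2) and 0.56 (without trained replicate 3).

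Sham and control rats, the reference groups, were also compared, and neither gene passed the test. Myh6 was 1.23-fold lower and Myh7 1.89-fold higher in sham rats by group means. The log2 differences of sham minus control were -0.36 for Myh6 (SE 0.23, 95% interval -0.86 to 0.14, edgeR adjusted p = 0.475) and 0.85 for Myh7 (SE 0.48, 95% interval -0.18 to 1.87, edgeR adjusted p = 0.397), in a comparison where 0.941% of genes passed. Over the alternatives run the Myh6 difference lay between -0.51 (without sham replicates 2 and 3) and -0.10 (without the filter on low counts), and was -0.24 without sham replicate 1. The Myh7 difference lay between 0.59 (without control replicate 1) and 1.17 (without the filter). The groups did not overlap for either gene, as held for 5.45% of genes in the lower and 7.9% in the higher direction (13.3% in either). For Myh6 the nearest samples were close, at 9951 CPM in the joined sham sample and 10086 CPM in control replicate 2. Start weight, surgery and experiment differed between these groups and cannot be told apart. PCM1-negative-enriched genes gave 2.18% ± 1.90 of the counts in sham (SD, n = 3) and 0.791% ± 0.200 in control samples (SD, n = 4), and their part in the difference was not tested. For Myh7 the log2 difference was 0.85 from control to sham and 0.74 from sham to banded, which share the sham samples.

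**Figure D2:**
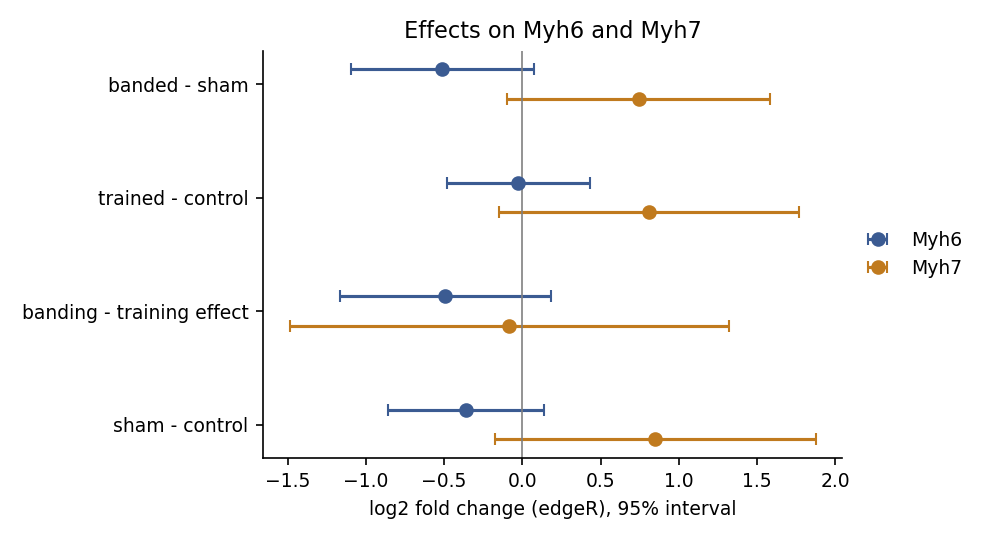
Log2 fold changes from edgeR (horizontal axis) with 95% intervals (bars) for Myh6 and Myh7 in 4 comparisons. All 8 intervals include 0, and the interval for the difference between both Myh7 effects is the widest, from -1.49 to 1.32.

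The ratio of Myh7 to Myh6 within a library needs no library size and follows the balance of beta and alpha chain transcripts. The share of Myh7 in the counts of both genes was 17.0%, 14.4% and 15.3% in sham sample 1, the joined sample and sample 4 (mean 15.6% ± 1.33, SD, n = 3). In banded samples 1 to 4 it was 28.8%, 38.5%, 36.4% and 15.5% (29.8% ± 10.4, SD, n = 4). Thus 3 banded samples lay far above the sham range and replicate 4 within it. In control samples 1 to 4 the share was 3.41%, 11.8%, 7.36% and 7.00% (7.39% ± 3.42, SD, n = 4). In trained samples 1 to 4 it was 5.89%, 6.14%, 33.7% and 10.0% (13.9% ± 13.3, SD, n = 4). Trained replicate 3 (exact binomial 95% interval 33.3% to 34.0%) reached the level of banded replicates 1 to 3, and the other 3 trained samples stayed within the control range.

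The mean ratio was 0.446 ± 0.199 in banded and 0.185 ± 0.0187 in sham rats, a 2.19-fold difference of geometric means (log2 difference 1.13, SE 0.41). The exact two-sided permutation test gave p = 0.0857 (0.171 after Benjamini-Hochberg adjustment over 4 comparisons of the ratio), where 4 against 3 samples allow no less than 0.0286. With sham replicates 2 and 3 apart the exact permutation p was 0.0571 (adjusted 0.114), which counts these near-repeat libraries as separate samples. With single libraries left out the log2 difference lay between 0.92 (without banded replicate 2) and 1.51 (without banded replicate 4), and it was 0.96 without banded replicate 3.

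In trained and control rats the mean ratios were 0.187 ± 0.215 and 0.0809 ± 0.0403 (SD, n = 4 each), a 1.69-fold difference of geometric means (log2 difference 0.76, SE 0.81, exact permutation p = 0.486, adjusted 0.648). The log2 difference was 0.08 without trained replicate 3 and 0.41 without control replicate 1. Sham exceeded control by 2.53-fold (log2 difference 1.34, SE 0.40, exact permutation p = 0.0571, adjusted 0.171), with all 3 sham samples above all 4 controls. The banding effect on the ratio minus the training effect was 0.37 on the log2 scale (SE 0.91, exact permutation p = 0.749 with labels permuted within each experiment). This value moved widely with single libraries left out, from 0.044 without trained replicate 1, 0.066 without trained replicate 2 and 0.080 without control replicate 2 to 1.05 without trained replicate 3 (exact permutation p = 0.190 for the last).

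**Figure D3:**
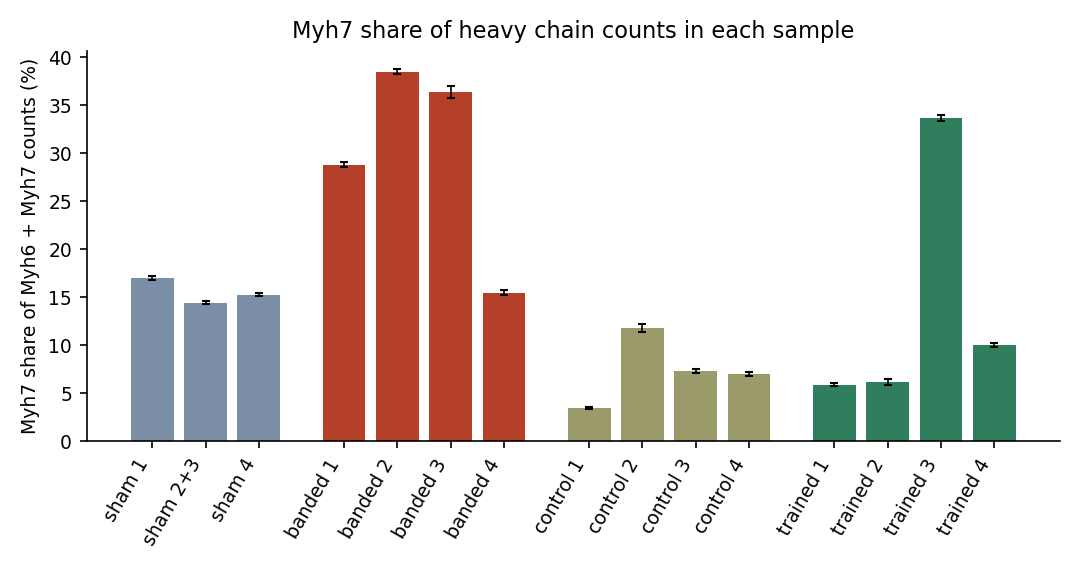
Myh7 counts as a percentage of Myh6 plus Myh7 counts (vertical axis, from 0) in each of 15 samples, coloured by group, with exact binomial 95% intervals (bars), which cover counting error only. Banded replicates 1 to 3 and trained replicate 3 reach 28.8% to 38.5%, while all other samples stay at or below 17.0%.

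**Figure D4:**
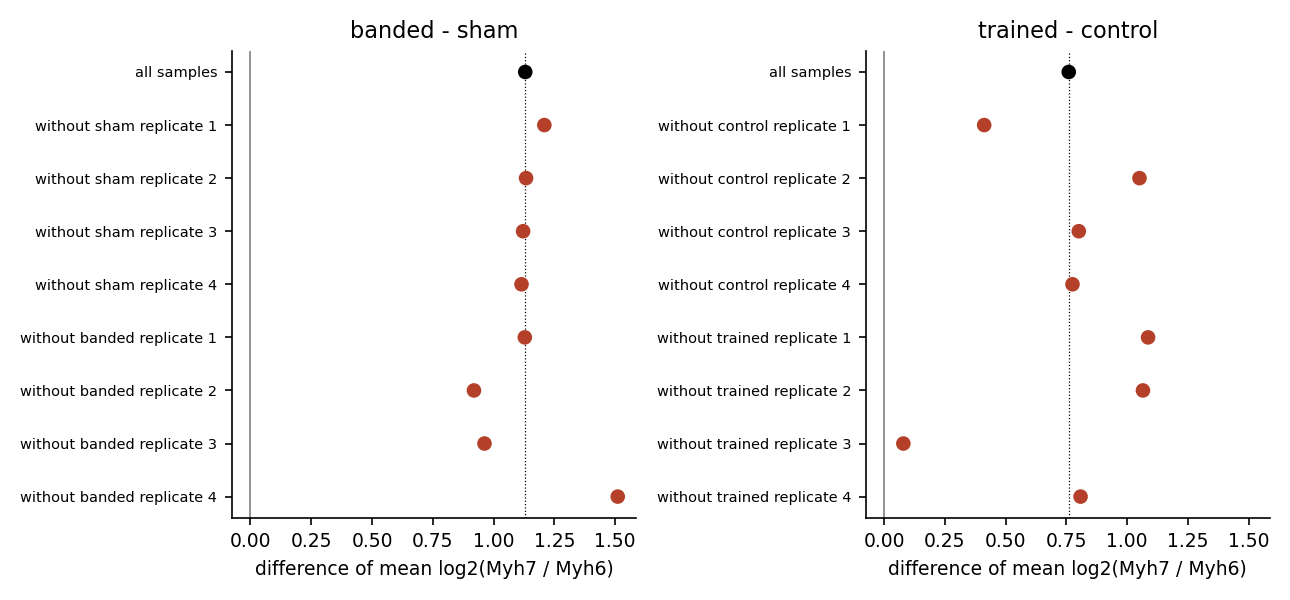
Difference of the mean log2 ratio of Myh7 to Myh6 counts (horizontal axis) for banded minus sham and trained minus control samples, with all samples (black point, dotted line) and without each replicate in turn. The banded minus sham difference stays between 0.92 and 1.51, whereas that for training drops from 0.76 to 0.08 without trained replicate 3.

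The 2 genes together were steadier than Myh7 alone in 3 of the 4 groups, the exception being sham. Their summed level was 10425 CPM ± 1071 in sham (SD, n = 3), 8945 ± 741 in banded, 11671 ± 218 in control and 11837 ± 2310 in trained rats (SD, n = 4 each). Control samples differed by a CV (SD over mean) of only 1.87% in the sum, against 44.9% in Myh7 and 5.38% in Myh6. The sum and Myh6 had CVs of 10.3% and 11.7% in sham, 8.28% and 10.8% in banded, and 19.5% and 30.5% in trained rats. Most of the sum came from Myh6, so a sum steadier than Myh7 says little about the 2 genes together. The sum differed by -1480 CPM between banded and sham rats by group means, and the groups overlapped.

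Across the samples of each experiment, group differences included, high Myh7 tended to go with low Myh6, but no relation passed its test. Within the surgery experiment the Pearson r of log2 CPM was -0.72 (n = 7, exact permutation p = 0.0770) and Spearman's rho -0.57 (p = 0.200). Within the exercise experiment r was -0.73 (n = 8, exact permutation p = 0.104) and rho -0.45 (p = 0.267). None of these 4 relations passed after adjustment (adjusted p 0.207 for both r, 0.267 for both rho, exact permutation). Without the 2 samples farthest from the median of Myh6, r was -0.69 in the surgery and -0.10 in the exercise experiment, where it rested on trained replicates 1 and 3. Both values share the library total as denominator. After centring each sample on its group mean, r over the 15 samples was -0.61, and -0.20 without trained replicate 3.

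**Figure D5:**
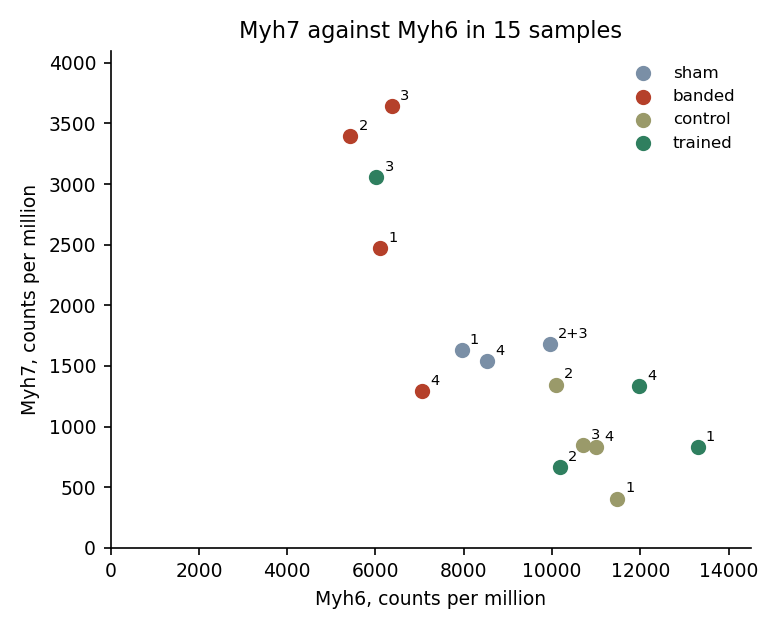
Myh7 (vertical axis) against Myh6 (horizontal axis), both as CPM, in 15 samples, coloured by group and numbered by replicate. Trained replicate 3 (6022 and 3057 CPM) lies among banded replicates 1 to 3, and banded replicate 4 (7062 and 1291 CPM) lies below the sham samples on both axes.

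Myh7 varied widely between samples of a group in banded, control and trained rats, and little in sham rats. Among 4555 genes with a mean of at least 5 on the log2 CPM scale (TMM), its SD in trained rats (0.97, against a median of 0.18) was the 11th highest. In control rats its SD of 0.71 ranked 68th and in banded rats its SD of 0.71 ranked 144th, while in sham rats its SD of 0.11 ranked 3501st and lay below the median of 0.20. Myh6 had an SD of 0.50 in trained rats, ranked 140th, and SDs below the median in banded and control rats (0.16 and 0.08). The wide spreads were smaller without the sample that lay farthest out, a choice that lowers an SD by itself. Even so, Myh7 stayed above the median SD in trained, control and banded rats. Without trained replicate 3 the SD in trained rats was 0.51 for Myh7 (145th) and 0.18 for Myh6 (2048th, near the median of 0.16). The Myh7 SD was 0.40 (335th, median 0.15) in control rats without replicate 1 and 0.41 (1203rd, median 0.29) in banded rats without replicate 4. In sham rats it was 0.05 without the joined sample.

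The genes whose centred log2 CPM followed each heavy chain most closely are given by identifier, since the files pair none with a name. For Myh6 these were ENSRNOG00000008786 (r = 0.91) and ENSRNOG00000003330 (r = 0.88, or 0.66 without trained replicate 3). For Myh7 they were ENSRNOG00000016219 and ENSRNOG00000019933 (r = 0.83 for both, or 0.87 and 0.73 without trained replicate 3). These are the highest of 4555 correlations over 15 samples and describe those samples only.

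Both genes were enriched in the cardiomyocyte fraction. In the authors' deposited table of PCM1-negative over PCM1-positive nuclei, Myh6 had a log2 fold change of -5.13 (35.1-fold higher in PCM1-positive nuclei, false discovery rate 0.00330). In the authors' deposited table Myh7 had -5.36 (41.0-fold, false discovery rate 2.05e-12). They ranked 26th and 13th of 12848 genes by enrichment in PCM1-positive nuclei, where 24% of genes were called as higher in that fraction and 4.7% by more than 8-fold. By name the comparison puts PCM1-positive nuclei first, the reverse of the order used here. The header does not state the sign. It was read from the 16 PCM1-positive libraries, where the median level was 6.77 log2 CPM for genes on the negative side of the table and 2.07 for genes on the positive side (more than 8-fold on either side). The table gives 1 value per gene, so no error can be given. PCM1-negative RNA was sampled in control rats only, so the enrichment was not measured in banded, sham or trained rats.

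The authors' deposited tables give 1 value per group and call more of these differences. In the authors' deposited table for surgery, Myh6 was at 13.16 log2 RPM (reads scaled to the library total, as CPM) in sham and 12.61 in banded rats, and Myh7 at 10.69 and 11.52, with a false discovery rate listed as 0 for both, where 2.63% of 22938 genes were called (1.46% higher, 1.17% lower). In the authors' deposited table for exercise, Myh7 was at 9.71 in control and 10.08 in trained rats (false discovery rate 3.2e-108) and Myh6 at 13.41 and 13.43 (false discovery rate 1), where 1.27% of genes were called (0.636% higher, 0.632% lower). Every one of these group values equalled the log2 of the median CPM of the group's 4 libraries within 0.001, as it did for all 22938 genes in each group (100%). A median of 4 sets aside the highest and the lowest library: for Myh7 in trained rats the authors' deposited value corresponds to 1083 CPM, while the mean was 1472 CPM and replicate 3 alone held 3057 CPM. The test behind the authors' rates is not stated in the sources used here. The same direction of both genes in surgery is no independent support, since the tables come from the same libraries.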

How the data were processed

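Nuclear RNA of PCM1-positive nuclei was sequenced. Per the file headers, the authors' tables hold raw counts by gene (smallest stored count 1), group values as log2 RPM with a false discovery rate (adjusted p-value), and log2 fold changes between PCM1 fractions. Bowtie, SAMtools, edgeR and R 2.15.1 are listed, with no roles, per the submitters' processing notes. Genome build and counting rule are not stated in the sources used here. The 2 unnamed rows of the exercise table held column totals and were dropped.

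The main test was edgeR 4.0.16's quasi-likelihood test on the deposited counts (TMM, filterByExpr with minimum count 10 and total 15, Benjamini-Hochberg over all genes, threshold 0.05) in R 4.3.3, per experiment, and over all groups for the difference and for sham against control. DESeq2 1.42.0 and limma 3.58.1 (voom) were alternatives. Ratios were tested by exact permutation in Python 3.11.15. The fitting code was tested on simulated data. Sham replicates 2 and 3 (squared difference at 1.07 of counting variance for genes of moderate count, or 1.27 for all genes, where the former was 2.70 to 28.2 in the other 23 pairs within groups) were joined, taking 1 off the sum. Same-numbered libraries were checked for pairing (correlation of deviations 0.09 to 0.76 in surgery and -0.04 to 0.13 in exercise). This did not settle whether numbers pair the surgery samples, and did not show pairing in exercise. The members, the rule for the genes named as most alike (the 2 highest correlations per member) and the alternatives were chosen with earlier results of these data known. A list of other sarcomere genes and cell type markers, written as gene names, could not be matched to identifiers and was not used. Promoters were to be shown only if a member passed the threshold, so none are. Chromatin tables were not used, since no source used here states their build.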

Additional observations from a re-analysis of the deposited data

Results flagged for a closer look

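The Myh7 to Myh6 ratio of trained replicate 3 (0.508) stood far from the other trained samples, at 0.0626, 0.0654 and 0.111. The gap to the nearest sample was 0.890 of the group's range, which Dixon's criterion marks as an outlier. On the log2 scale the gap was 0.724 of the range and was not marked, nor were the CPM values of either gene. Among 12 such checks (4 measures in 3 groups, not independent) 1 was marked, where chance marks about 1 in 20 groups.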

How the results depend on the processing

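Over all alternatives run, neither gene passed the edgeR, DESeq2 or voom threshold for banding, for the difference or for sham against control. The 1 exception was the training effect on Myh7 without the filter on low counts (0.99, edgeR adjusted p = 0.0114). The banding effects kept their sign in all 21 alternatives (-0.67 to -0.38 for Myh6, 0.55 to 0.97 for Myh7; adjusted p 0.144 to 1.00), as did the ratio in all 14 (log2 0.92 to 1.51). Only 2 results changed sign, both with a main value near 0. The Myh7 difference between banding and training effects did so in 5 of 27 alternatives. Among these was voom (0.037), and with libraries left out in turn the difference ran from -0.38 to 0.56. The training effect on Myh6 changed sign in 2 of 17 alternatives, and ran from -0.17 to 0.17 over libraries left out. The cause was not tested, beyond the loss of single libraries. Same-numbered libraries correlated best with each other in 3 of 4 surgery and 1 of 4 exercise pairs. With a replicate block, sham libraries 2 and 3 kept apart, values were -0.55 (Myh6) and 0.61 (Myh7) for banding, -0.08 and 0.70 for training, -0.48 and -0.10 for the difference, and -0.33 and 0.94 for sham against control, with no call for either gene (lowest edgeR adjusted p = 0.140). The blocked ratio gave exact permutation p = 0.125 for banding, the smallest possible, and none was made for sham against control, whose numbers pair nothing. Counts of called genes varied between tools: for banding 1 in edgeR, 2 in DESeq2 and 0 in voom (16 in DESeq2 with the sham pair apart, chosen after seeing the data, as was the spread within groups without each sample); for training 0, 37 and 0, and 89 in edgeR without the filter; for the difference 1, 4 and 0. For sham against control they were 119, 483 and 100, and 192 in edgeR with the sham pair apart, 777 with the block, 613 without the pair, and 30 to 201 over single libraries left out.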

Other observations

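By counts, which are not divided by gene length, Myh6 ranked 4th to 9th of all 22938 genes in every library. Myh7 ranked 18th to 22nd in banded replicates 1 to 3, 83rd in banded replicate 4, 25th in trained replicate 3 and 405th in control replicate 1. In the authors' deposited table of PCM1 fractions, Myh6 had the 3rd highest mean level and Myh7 the 358th.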
